A study of Mus musculus with 6 samples.

Results

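Interferon-stimulated genes are the genes that cells switch on after interferon binds its receptor. A list of 37 such symbols was looked up by symbol in array data from mouse embryonic fibroblasts with and without Ezh2, a Polycomb protein that methylates histone H3. Of the 37 symbols, 36 were found among the 20723 symbols of the array tables, and Igtp was not found. The 36 genes had 37 of the 23346 probe sets, because Irf1 had 2, and the Irf1 probe set with the higher mean level was used. The list was divided by role into 20 antiviral effectors, 6 sensors of foreign nucleic acid with their kinase and ligase, 4 transcription factors, and 6 measured genes of antigen processing or of the interferon-inducible GTPases.

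Total RNA was measured on 6 whole-transcript arrays of fibroblasts of the Ola129 strain, a bulk measurement in which fewer cells of a type and less RNA per cell cannot be told apart. The groups were Ink4a/Arf-/- Ezh2 -/- cells (2 arrays), Ink4a/Arf-/- Ezh2 fx/fx cells (2 arrays), Ink4a/Arf+/+ Ezh2 -/- cells (1 array) and Ink4a/Arf+/+ Ezh2 fx/fx cells (1 array). The Ink4a/Arf locus (Cdkn2a) gives rise to the Ink4a and Arf proteins, which restrain cell cycle kinases and stabilise p53, and both Ezh2 genotypes of the first pair of groups lack it. All cells grew on gelatin in medium with serum and leukemia inhibitory factor, and the labels name no interferon and no virus. The sample titles give genotypes, whereas the design text of the series describes transient transfection with short RNAs against Ezh2, and the titles were followed. The sources used here do not give the Cre that removed Ezh2 or the number of embryos or lines behind a group. Nothing in the labels says that the replicates came from separate cultures, so a p-value measures the spread between these arrays, which may be technical.

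Cells sense viral RNA or DNA through receptors such as RIG-I and MDA5, and fibroblasts respond by secreting type I interferon. Interferon acts through a surface receptor and the kinases Jak1 and Tyk2 on STAT proteins such as Stat2, which joins Irf9 in a complex that binds the interferon-stimulated response element in promoters. The induced genes block viral replication, add further sensors and transcription factors, and raise the display of peptides on class I molecules.

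The core of that response element, GAAANNGAAA, was searched on both strands of the RefSeq promoters of build GRCm38.p6, each of which runs from 250 bases before to 50 bases after the start of a gene. A promoter was present for 28 of the 36 members, and 13 of these 28 (46.4%) held the core, against 1079 of 27025 genes in the whole promoter table (3.99%). By class the core was found in 6 of 14 effectors, 3 of 4 sensors, 1 of 4 transcription factors and 3 of 6 antigen-processing or GTPase genes. Overlapping matches were counted separately, which gave 21 matches, and 16 of them lay within the 150 bases before the start. The 6 members with the core that had the largest Ezh2 difference in either background are shown, because their values are described in detail below. Capitals mark the core, which reads TTTCNNTTTC where it lies on the opposite strand. The sequences run 5′ to 3′ on the strand of the gene, at chr19:34640639-34640938 (+) for Ifit1, chr19:34583279-34583578 (+) for Ifit3, chr11:48871371-48871670 (-) for Irgm1, chr4:156200769-156201068 (-) for Isg15, chr3:142620413-142620712 (+) for Gbp2 and chr10:128270248-128270547 (+) for Stat2.
Ifit1: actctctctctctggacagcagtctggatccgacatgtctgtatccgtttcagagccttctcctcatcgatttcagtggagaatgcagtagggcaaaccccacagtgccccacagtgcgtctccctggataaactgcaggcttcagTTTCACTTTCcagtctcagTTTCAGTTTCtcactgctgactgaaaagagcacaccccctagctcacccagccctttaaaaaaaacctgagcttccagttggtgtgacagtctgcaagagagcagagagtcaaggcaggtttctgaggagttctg
Ifit3: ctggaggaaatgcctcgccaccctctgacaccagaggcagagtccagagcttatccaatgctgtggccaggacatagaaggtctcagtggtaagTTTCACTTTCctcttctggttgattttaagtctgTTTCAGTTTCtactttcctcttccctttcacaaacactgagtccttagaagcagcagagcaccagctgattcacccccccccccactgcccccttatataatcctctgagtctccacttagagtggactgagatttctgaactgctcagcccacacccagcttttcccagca
Irgm1: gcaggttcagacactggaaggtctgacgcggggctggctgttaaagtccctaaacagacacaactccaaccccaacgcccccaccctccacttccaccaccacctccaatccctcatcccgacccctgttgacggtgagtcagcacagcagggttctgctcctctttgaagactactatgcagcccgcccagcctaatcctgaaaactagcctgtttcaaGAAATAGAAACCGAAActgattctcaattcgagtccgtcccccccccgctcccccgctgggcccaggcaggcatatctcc
Isg15: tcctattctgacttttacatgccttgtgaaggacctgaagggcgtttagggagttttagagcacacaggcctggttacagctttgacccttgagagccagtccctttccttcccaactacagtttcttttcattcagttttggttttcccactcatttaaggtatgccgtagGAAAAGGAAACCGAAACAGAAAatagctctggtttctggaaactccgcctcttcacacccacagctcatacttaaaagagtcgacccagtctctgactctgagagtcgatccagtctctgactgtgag
Gbp2: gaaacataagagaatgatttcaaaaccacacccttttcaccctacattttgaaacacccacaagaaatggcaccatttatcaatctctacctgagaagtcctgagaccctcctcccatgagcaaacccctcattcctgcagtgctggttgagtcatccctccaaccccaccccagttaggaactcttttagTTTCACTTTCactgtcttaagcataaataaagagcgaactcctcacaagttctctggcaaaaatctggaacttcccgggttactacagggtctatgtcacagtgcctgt
Stat2: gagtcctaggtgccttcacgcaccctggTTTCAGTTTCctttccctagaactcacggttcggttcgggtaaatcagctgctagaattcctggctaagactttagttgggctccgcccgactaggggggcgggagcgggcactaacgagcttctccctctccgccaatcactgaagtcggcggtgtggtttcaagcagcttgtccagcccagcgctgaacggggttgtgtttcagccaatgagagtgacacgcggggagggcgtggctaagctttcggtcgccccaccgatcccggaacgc
Ifit1 and Ifit3 each hold 2 separate copies, Irgm1 holds 2 overlapping matches and Isg15 holds 3, while Gbp2 and Stat2 hold 1. Ifi44, the member with the largest Ezh2 difference in both backgrounds, had a promoter in the table with no match in this window. A match is a stretch of letters and not a measured binding site.

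**Figure D1:**
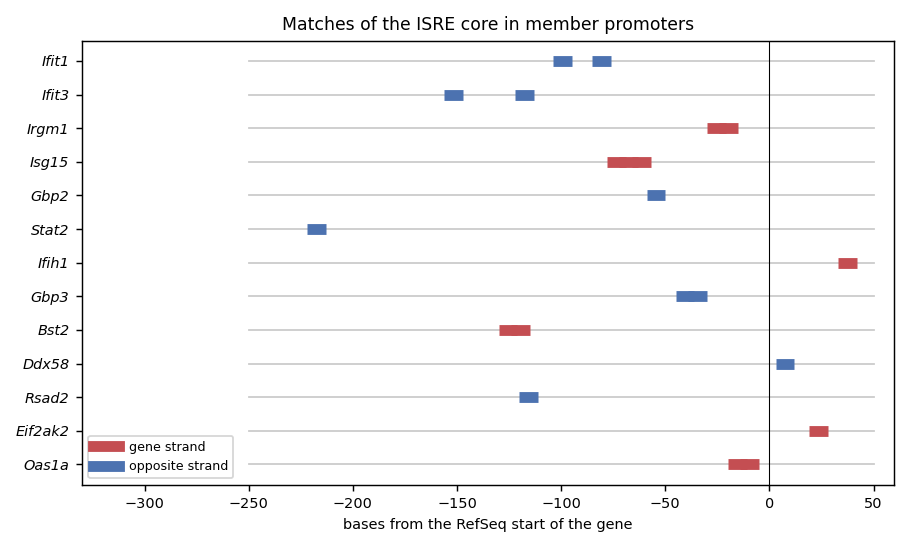
Positions of the response element core in the promoters of the 13 members that hold it, in bases from the RefSeq start of each gene; red marks the gene strand, blue the opposite strand and the grey line the searched window. Of the 21 matches, 16 lie within the 150 bases before the start, and those of Ifih1, Ddx58 and Eif2ak2 lie after it.

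The values are log2 levels in 2 tables, 1 per Ink4a/Arf background. Array medians were 8.27 and 8.26 for Ezh2 -/- and 8.32 and 8.25 for fx/fx arrays of Ink4a/Arf-/- cells, and 7.51 for the Ezh2 -/- array and 7.498 for the fx/fx array of Ink4a/Arf+/+ cells, so levels were compared only within a table. Of the fx/fx replicates of Ink4a/Arf-/- cells, replicate 1 read above replicate 2 in 72% of all probe sets and in 24 of the 36 members (66.7%). The number of higher members, the median of all members and the class medians are also given without replicate 1. Counts of separated groups and of members alike in both backgrounds are given only with it. In Ink4a/Arf-/- cells Ezh2 itself averaged 10.56 in Ezh2 -/- and 10.92 in fx/fx cells, a difference of -0.35 ± 0.077 (SE, n = 2 each; limma's adjusted p = 0.577). It read 10.12 in Ezh2 -/- and 10.48 in fx/fx cells with Ink4a/Arf, and where its probes lie relative to the deleted part is not given. The Cdkn2a probe set read 8.11 and 8.20 on Ezh2 -/- and 8.29 and 8.18 on fx/fx arrays labelled Ink4a/Arf-/-, and 8.62 on the Ezh2 -/- and 7.91 on the fx/fx array labelled Ink4a/Arf+/+, and where its probes lie relative to that deletion is likewise not given. Vim, Col1a1 and Col1a2, the brightest of 10 fibroblast markers, read between 13.10 and 14.16 on all 6 arrays. The others read lower and some varied, as Pdgfra did at 8.28 on the Ezh2 -/- and 9.69 on the fx/fx array of Ink4a/Arf+/+ cells.

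In Ink4a/Arf-/- cells, Ifi44 (1.49-fold) and Ifit1 (1.41-fold) read the most above fx/fx without Ezh2, and 24 of the 36 interferon-stimulated genes differed by less than 0.1 on the log2 scale. Of the 36 members 23 had a higher mean on the Ezh2 -/- arrays (63.9%, against 39.1% of all probe sets) and 13 a lower one. Their median log2 difference was 0.042, with a range of -0.21 to 0.58, against a median of -0.027 over all probe sets. Both Ezh2 -/- arrays lay above both fx/fx arrays for 12 members (33.3%, against 13% of all probe sets), namely Ifi44, Ifit1, Ifit3, Oasl2, Usp18, Bst2, Parp14, Tap1, Gbp2, Irgm1, Irf9 and Stat2. Both lay below for Dhx58 and Isg15, which are 2 members (5.56%, against 23.6% of all probe sets). The groups overlapped for the other 22.

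No member passed the test across the array in Ink4a/Arf-/- cells. With limma and Benjamini-Hochberg adjustment over 23346 probe sets, 0 of 36 members were called at an adjusted p below 0.05, as were 0% of all probe sets, and the authors' deposited p-values, adjusted the same way, also called 0 members. At an unadjusted p below 0.05, 4 members were higher (11.1%, against 2.8% of all probe sets), namely Ifi44, Ifit1, Oasl2 and Tap1, and 0 were lower, against 4.12% of all probe sets. The number of higher members at this threshold changed with the array left out. Without the dimmest 30% of probe sets, and with gene medians, 1 member, Dhx58, was lower at this threshold. With a variance trend in limma's fit, Ifi44 had an adjusted p of 0.0438, and over all the alternatives between 0.0438 and 0.99992. The median moved with single arrays. Without Ezh2 -/- replicate 1 it was 0.020. Without fx/fx replicate 1 it was 0.078, with 30 of 36 members higher (83.3%, against 55.9% of all probe sets). Without fx/fx replicate 2 it was -0.0061, with 17 higher, against a median of -0.071 over all probe sets.

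**Figure D2:**
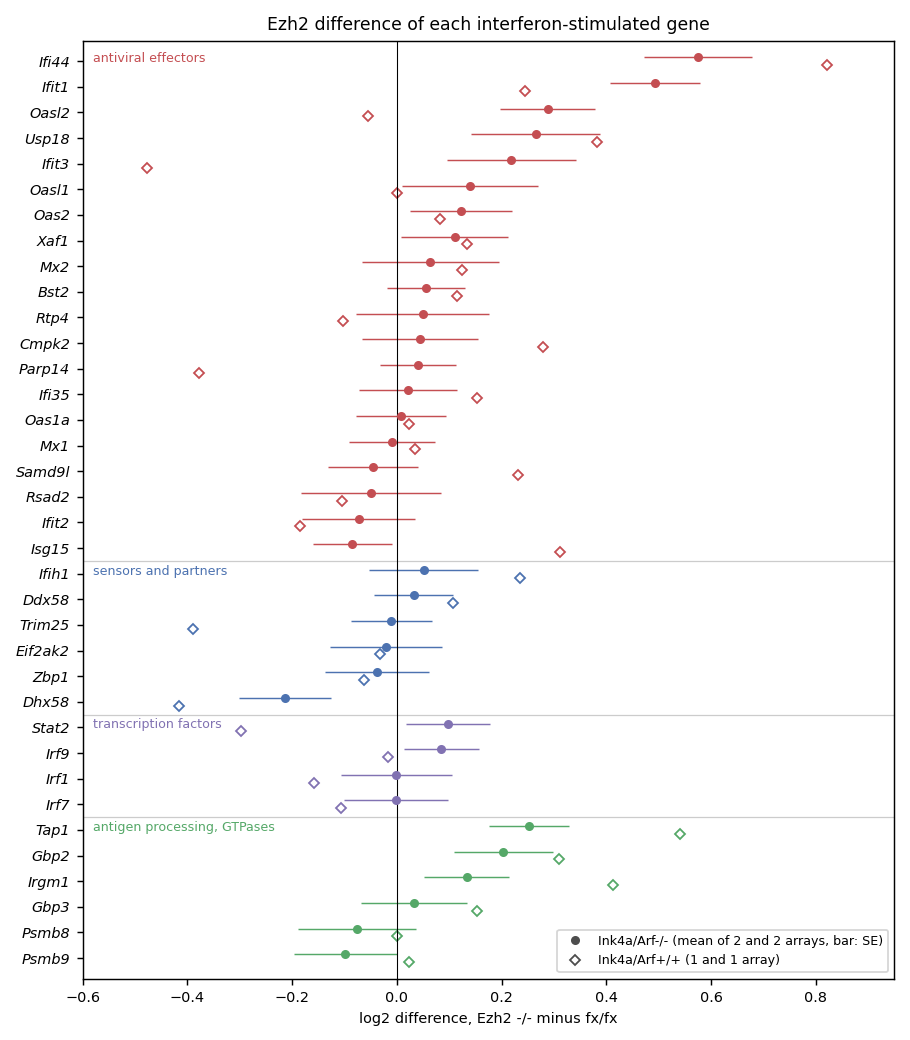
Log2 difference, Ezh2 -/- minus fx/fx, of each of the 36 members, grouped by role; filled circles with bars give the mean difference and its standard error in Ink4a/Arf-/- cells (2 and 2 arrays) and open diamonds the single difference in Ink4a/Arf+/+ cells (1 and 1 array). Ifi44 has the most positive difference in both backgrounds, and Ifit3, Parp14 and Isg15 sit on opposite sides of 0.

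The antiviral effectors held the members with the largest differences in Ink4a/Arf-/- cells. Of the 20, 15 were higher and 5 lower on the Ezh2 -/- arrays, with a median of 0.052. The median was 0.11 without fx/fx replicate 1 (17 higher) and -0.0075 without fx/fx replicate 2. Ifi44, an interferon-induced gene with reported antiviral activity, read 9.37 and 9.53 on the Ezh2 -/- arrays, against 8.97 and 8.78 on the fx/fx arrays. Both Ezh2 -/- arrays were above both fx/fx arrays by more than either pair of replicates differed. The difference was 0.58 ± 0.10 (SE, n = 2 each), a 1.49-fold higher level, with limma's unadjusted p of 0.00158 and adjusted p of 0.520. Ifit1, which binds viral RNA that lacks the host's cap methylation and blocks its translation, read 7.19 and 7.05 on the Ezh2 -/- arrays, against 6.58 and 6.68 on the fx/fx arrays. Its groups were also separated by more than the replicates differed, with a difference of 0.49 ± 0.086 (1.41-fold higher, limma's unadjusted p = 0.00140, adjusted p = 0.520). Ifit1, Ifit3 and Isg15 were among the dimmest 30% of probe sets.

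Ifit2 and Ifit3, neighbours of Ifit1 in the same gene cluster, had smaller differences. Ifit3, of the same family, read 7.08 and 6.73 on the Ezh2 -/- arrays, against 6.68 and 6.69 on the fx/fx arrays. One Ezh2 -/- array stood apart and the other lay next to the fx/fx arrays, and the difference was 0.22 ± 0.12 (limma's adjusted p = 0.777). Ifit2 read 8.84 and 8.57 on the Ezh2 -/- arrays, against 8.75 and 8.81 on the fx/fx arrays, and the groups overlapped (difference -0.073). RefSeq of build GRCm38.p6 places no protein-coding gene between Ifit2 and Ifit3, and 3 between Ifit3 and Ifit1. Probes of Ifit3 may also detect its near-identical copy Ifit3b, which was not found among the symbols, so the Ifit3 values are uncertain in this respect.

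The oligoadenylate synthetase family makes the signal that activates the RNA-degrading enzyme RNase L. Oasl2, a family member, read 8.07 and 7.93 on the Ezh2 -/- arrays, against 7.78 and 7.65 on the fx/fx arrays, with both Ezh2 -/- arrays above both fx/fx arrays. The difference was 0.29 ± 0.091 (limma's unadjusted p = 0.0206, adjusted p = 0.655). Oasl1, which in mice blocks translation of Irf7, lies directly beside Oasl2 and read 8.41 and 8.32 on the Ezh2 -/- arrays, against 8.40 and 8.04 on the fx/fx arrays. The first fx/fx array fell inside the range of the Ezh2 -/- arrays, and the difference was 0.14 ± 0.13, about as large as its error, and 0.32 without that array. Oas1a (0.0073) and Oas2 (0.12) overlapped between genotypes, and Oas1a has close copies in the mouse genome that probes may not tell apart.

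Isg15 and its protease differed in direction. Usp18, which removes Isg15 from proteins and also dampens signalling at the interferon receptor, read 7.86 and 7.67 on the Ezh2 -/- arrays, against 7.64 and 7.35 on the fx/fx arrays. The lower Ezh2 -/- array lay just above the higher fx/fx array, and the difference was 0.27 ± 0.12 (limma's adjusted p = 0.750), or 0.41 without fx/fx replicate 1. Isg15, a ubiquitin-like modifier that also acts outside the cell, read 6.71 and 6.79 on the Ezh2 -/- arrays, against 6.86 and 6.81 on the fx/fx arrays. Both Ezh2 -/- arrays were below both fx/fx arrays by a small margin, with a difference of -0.085 ± 0.075 (limma's adjusted p = 0.875). Parp14, an ADP-ribosyltransferase, read 7.33 and 7.30 on the Ezh2 -/- arrays, against 7.30 and 7.25 on the fx/fx arrays, and the groups were separated by little (0.040 ± 0.072).

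The remaining effectors lay close to 0. Bst2, the surface tether that holds budding virus on the cell, differed by 0.056, Xaf1, a proapoptotic gene, by 0.11 and Rtp4 by 0.049. The Mx GTPases, which trap viral nucleocapsids, differed by -0.010 (Mx1) and 0.064 (Mx2). Both were among the dimmest 30% of probe sets, with Mx1 at 4.47 to 4.60 and Mx2 at 5.25 to 5.61 on these arrays. Rsad2 (viperin) and its direct neighbour Cmpk2, which act together on a nucleotide analogue that stops viral polymerases, differed by -0.050 and 0.044. Ifi35 differed by 0.021 and Samd9l, a restriction factor of poxviruses, by -0.045. Of these 9 only Bst2 had groups that did not overlap.

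**Figure D3:**
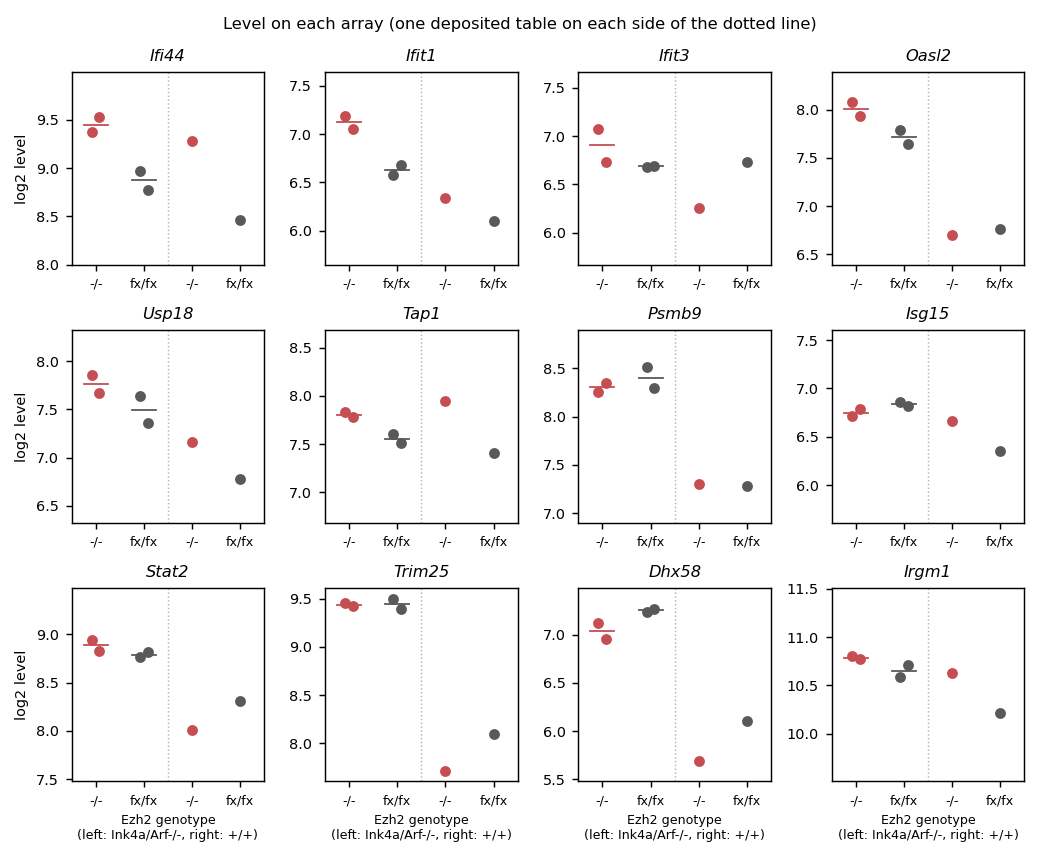
Log2 level of 12 members on each array, Ezh2 -/- in red and fx/fx in grey; in each panel the 2 left columns are Ink4a/Arf-/- cells with a bar at the mean and the 2 right columns, past the dotted line, are Ink4a/Arf+/+ cells from the other deposited table, whose levels are not compared with the left. Ifi44, Ifit1, Tap1, Usp18 and Irgm1 are higher on the Ezh2 -/- arrays on both sides of the line, whereas Stat2, Oasl2 and Ifit3 are higher on the left side only.

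Among the antigen-processing and GTPase genes, Tap1, Gbp2 and Irgm1 had both Ezh2 -/- arrays above both fx/fx arrays in Ink4a/Arf-/- cells, and Gbp3, Psmb8 and Psmb9 overlapped. Of the 6 measured genes 4 were higher and 2 lower on the Ezh2 -/- arrays of Ink4a/Arf-/- cells, with a median of 0.083. The median was 0.070 without fx/fx replicate 1 (5 of 6 higher), 0.175 without fx/fx replicate 2, 0.054 without Ezh2 -/- replicate 1 and 0.168 without the dimmest 30% of probe sets. Tap1, a subunit of the transporter that carries peptides to class I molecules, read 7.83 and 7.78 on the Ezh2 -/- arrays, against 7.60 and 7.51 on the fx/fx arrays. Both Ezh2 -/- arrays were higher, by 0.25 ± 0.077 (limma's unadjusted p = 0.0179, adjusted p = 0.648). Its direct neighbours on both sides, Psmb8 and Psmb9, encode the proteasome subunits that cut peptides for display. Psmb8 read 6.78 and 6.81 on the Ezh2 -/- arrays, against 7.02 and 6.72 on the fx/fx arrays (-0.076), and Psmb9 read 8.26 and 8.35 on the Ezh2 -/- arrays, against 8.51 and 8.29 on the fx/fx arrays (-0.098). Both overlapped between genotypes, and without fx/fx replicate 1 the differences were 0.072 (Psmb8) and 0.010 (Psmb9).

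Gbp2, a guanylate-binding protein that coats intracellular pathogens, read 8.06 and 7.87 on the Ezh2 -/- arrays, against 7.72 and 7.81 on the fx/fx arrays. The groups were close but did not overlap, with a difference of 0.20 ± 0.095 (limma's adjusted p = 0.750). Gbp3 overlapped (0.032, or -0.088 without fx/fx replicate 1). Psmb8 and Gbp3 were also among the dimmest 30% of probe sets. Irgm1, a GTPase that regulates the other immunity-related GTPases and autophagy, read 10.80 and 10.77 on the Ezh2 -/- arrays, against 10.59 and 10.72 on the fx/fx arrays. The Ezh2 -/- arrays lay slightly above, by 0.13 ± 0.081 (limma's adjusted p = 0.799), or 0.068 without fx/fx replicate 1.

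The sensors showed no common direction in Ink4a/Arf-/- cells, with 2 of 6 higher, 4 lower and a median of -0.015. Without fx/fx replicate 1 the median was 0.034, with 4 of 6 higher. Dhx58 (LGP2), which binds viral RNA and tunes the other receptors, read 7.12 and 6.95 on the Ezh2 -/- arrays, against 7.23 and 7.27 on the fx/fx arrays. Both Ezh2 -/- arrays were below both fx/fx arrays, with a difference of -0.21 ± 0.088 (limma's unadjusted p = 0.0520, adjusted p = 0.724). Ddx58 (RIG-I), which recognises RNA with a triphosphate end, read 9.99 and 9.96 on the Ezh2 -/- arrays, against 9.98 and 9.90 on the fx/fx arrays, while Ifih1 (MDA5), which binds long double-stranded RNA, read 7.25 and 7.50 on the Ezh2 -/- arrays, against 7.30 and 7.35 on the fx/fx arrays. Both overlapped, with differences of 0.032 and 0.051. Trim25, a ubiquitin ligase of the RIG-I pathway, read 9.45 and 9.42 on the Ezh2 -/- arrays, against 9.50 and 9.39 on the fx/fx arrays and differed by -0.010. Eif2ak2 (PKR), the kinase that halts translation on double-stranded RNA, differed by -0.020, and Zbp1, a sensor of Z-form nucleic acid, by -0.039.

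The transcription factors lay close to 0, with 2 higher, 2 lower and a median of 0.042. The median was 0.11 without fx/fx replicate 1 (all 4 higher) and -0.028 without fx/fx replicate 2. Stat2, a subunit of the interferon-activated complex, read 8.94 and 8.83 on the Ezh2 -/- arrays, against 8.76 and 8.81 on the fx/fx arrays. The lower Ezh2 -/- array lay just above the higher fx/fx array, and the difference was 0.098 ± 0.080 (limma's adjusted p = 0.864). Irf9, the DNA-binding subunit of that complex, read 9.09 and 9.12 on the Ezh2 -/- arrays, against 9.04 and 8.999 on the fx/fx arrays, with groups that did not overlap and a difference of 0.085 ± 0.072 (limma's adjusted p = 0.866). Irf7, which amplifies interferon gene transcription, read 7.51 and 7.50 on the Ezh2 -/- arrays, against 7.63 and 7.39 on the fx/fx arrays, and the Ezh2 -/- arrays fell between the fx/fx arrays (-0.0021). Irf1, a factor for interferon-gamma responses and for Tap1 and Psmb9, differed by -0.0011, and its second probe set by -0.022.

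In Ink4a/Arf+/+ cells, where 1 array per genotype gives no spread and members were not tested singly, Ifi44 and Tap1 read highest relative to fx/fx, and none of the 6 antigen-processing and GTPase genes was lower. Of the 36 members 21 were higher on the Ezh2 -/- array (58.3%, against 50.1% of all probe sets), 14 were lower and Oasl1 was equal at 7.11, with a median of 0.029 against 0.00072 over all probe sets. One member, Ifi44, was at least 1.5-fold higher (2.78%, against 2.64% of all probe sets) and 0 were at least 1.5-fold lower, against 1.83% of all probe sets. No member was at least 2-fold higher, against 0.797% of all probe sets, or at least 2-fold lower, against 0.313%. These shares were near those of the whole array. Medians by class were 0.099 for effectors (13 higher, 6 lower), -0.047 for sensors (2 higher, 4 lower), -0.13 for transcription factors (0 higher, 4 lower) and 0.23 for antigen-processing and GTPase genes (6 higher, 0 lower, with Psmb8 and Psmb9 near 0).

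Ifi44 read 9.28 on the Ezh2 -/- array, against 8.46 on the fx/fx array of Ink4a/Arf+/+ cells, a difference of 0.82 (1.77-fold). Tap1 read 7.95 on the Ezh2 -/- array, against 7.41 on the fx/fx array (0.54, 1.45-fold), while its neighbours differed by 0.00070 (Psmb8) and 0.024 (Psmb9). As in Ink4a/Arf-/- cells, the transporter gene was higher, and the proteasome genes beside it differed by little. Irgm1 read 10.62 on the Ezh2 -/- array, against 10.21 on the fx/fx array (0.41). Gbp2 read 8.27 on the Ezh2 -/- array, against 7.96 on the fx/fx array (0.31), and Gbp3 differed by 0.15. All 3 GTPases were thus on the same side as Tap1. Usp18 read 7.17 on the Ezh2 -/- array, against 6.78 on the fx/fx array (0.38). Isg15 read 6.66 on the Ezh2 -/- array, against 6.35 on the fx/fx array (0.31). Both genes of this modifier system were thus higher on the Ezh2 -/- array here. Ifit1 read 6.34 on the Ezh2 -/- array, against 6.10 on the fx/fx array (0.24). Ifih1 read 7.01 on the Ezh2 -/- array, against 6.77 on the fx/fx array (0.23), and Ddx58 read 9.97 on the Ezh2 -/- array, against 9.86 on the fx/fx array (0.11). These 2 RNA receptors were higher here, by less than Tap1, whereas the other 4 genes of the sensor class, Dhx58 among them, were lower. Cmpk2 (0.28) and Samd9l (0.23) were higher as well.

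The lower members included an effector of the Ifit cluster and regulators of RNA sensing. Ifit3 read 6.25 on the Ezh2 -/- array, against 6.73 on the fx/fx array (-0.48), with Ifit2 beside it at -0.18. Dhx58 read 5.69 on the Ezh2 -/- array, against 6.11 on the fx/fx array (-0.42), which made it lower in both backgrounds. Trim25 read 7.71 on the Ezh2 -/- array, against 8.10 on the fx/fx array (-0.39). Parp14 read 5.93 on the Ezh2 -/- array, against 6.31 on the fx/fx array (-0.38). All 4 transcription factors were lower on the Ezh2 -/- array. Stat2 read 8.01 on the Ezh2 -/- array, against 8.31 on the fx/fx array (-0.30). Irf7 read 6.66 on the Ezh2 -/- array, against 6.76 on the fx/fx array (-0.11). Irf9 read 8.63 on the Ezh2 -/- array, against 8.65 on the fx/fx array (-0.016), the smallest difference of the 4 by the probe sets used. Irf1 differed by -0.16, but its second probe set by only -0.016. The remaining members, among them Oasl2 (-0.056), Eif2ak2 (-0.032) and Mx1 (0.035), lay between -0.10 and 0.15.

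Members were then compared between the backgrounds. Higher in both were 16 members (44.4%, against 24% of all probe sets), among them Ifi44, Ifit1, Usp18, Tap1, Gbp2 and Irgm1, and 8 were lower in both (22.2%, against 33.6% of all probe sets). The comparisons share no array. Across the 36 members the differences in the 2 backgrounds correlated with Pearson's r of 0.52 and Spearman's rho of 0.39, given as a description, and without Ifi44 these were 0.35 and 0.34. Over all 23346 probe sets both were 0.25. Whether a member's Ezh2 difference differed between backgrounds was tested in limma as the difference in Ink4a/Arf+/+ minus that in Ink4a/Arf-/- cells, on the assumption that a single array varies as the replicates do. None of the 36 members passed an adjusted p below 0.05, against 0.407% of all probe sets.

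At an unadjusted p below 0.05 in that limma contrast, 1 member was on the positive side (2.78%, against 6.5% of all probe sets) and 4 were on the negative side (11.1%, against 4.66%). The positive one was Isg15, with 0.40 ± 0.13 (SE; limma's adjusted p = 0.351). The negative ones were Ifit3 at -0.69 ± 0.21 (limma's adjusted p = 0.319), Parp14 at -0.42 ± 0.13 (0.310), Stat2 at -0.40 ± 0.14 (0.377) and Trim25 at -0.38 ± 0.13 (0.386). Ifit3, Parp14 and Stat2 were higher without Ezh2 in Ink4a/Arf-/- cells and lower without it in Ink4a/Arf+/+ cells. For Ifi44 the contrast was 0.25 ± 0.18 (limma's adjusted p = 0.698). Which members had an unadjusted p below 0.05 in limma changed with the array left out. Over the alternatives the contrast of Ifit3 lay between -0.87 and -0.52.

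**Figure D4:**
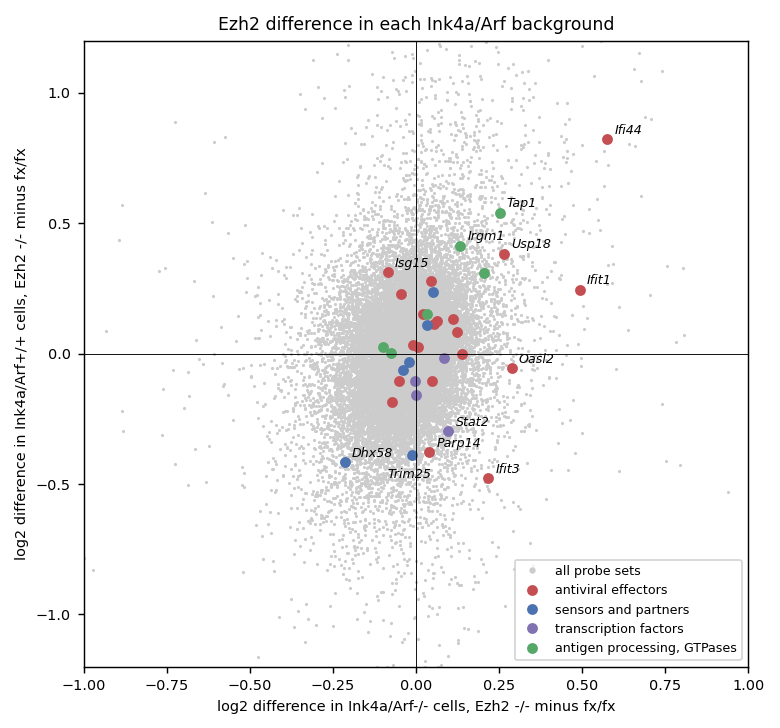
Log2 difference, Ezh2 -/- minus fx/fx, in Ink4a/Arf-/- cells (x axis) against that in Ink4a/Arf+/+ cells (y axis) for all probe sets (grey) and the 36 members coloured by role; 164 probe sets lie outside the axes. Ifi44 stands at the upper right, and Ifit3, Parp14 and Stat2 lie to the right of 0 and below it.

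The promoters were set beside the values. Of the 13 members with the response element core 10 were higher and 3 lower on the Ezh2 -/- arrays of Ink4a/Arf-/- cells, with a median of 0.051, and 9 were higher and 4 lower in Ink4a/Arf+/+ cells, with a median of 0.11. Of the 15 members with a promoter but no match 8 were higher and 7 lower in Ink4a/Arf-/- cells, with a median of 0.021. Of these, 8 were higher, 6 lower and 1 equal in Ink4a/Arf+/+ cells, with a median of 0.00070. The ranges of the members with and without the core overlapped in each background, and Ifit1 and Ifit3, which both hold 2 copies, had differences of opposite sign in Ink4a/Arf+/+ cells.

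Genes that make, receive and regulate interferon, and further interferon-stimulated genes, were read from separate lists. Of their 99 symbols 90 were measured, and 49 of these 90 were further interferon-stimulated genes. In Ink4a/Arf-/- cells 52 were higher and 38 lower (median 0.027), limma called 0 at an adjusted p below 0.05, and at an unadjusted p below 0.05 there were 9 higher (10%, against 2.8% of all probe sets) and 0 lower (against 4.12%). With Ink4a/Arf intact, 48 were higher and 39 lower, with 5 at least 1.5-fold higher (5.56%, against 2.64% of all probe sets) and 1 lower by as much (1.11%, against 1.83%). The list of further interferon-stimulated genes held 7 of the 9 with an unadjusted p below 0.05 in limma. It also held all 5 that were at least 1.5-fold higher and the 1 that was lower. Of 9 interferon genes 2 were higher and 7 lower in Ink4a/Arf-/- cells. Ifnz read 11.77 and 11.74 on the Ezh2 -/- arrays, against 11.36 and 11.49 on the fx/fx arrays (0.34 ± 0.081, limma's unadjusted p = 0.00652, adjusted p = 0.592). In Ink4a/Arf+/+ cells Ifnz read 11.27 on the Ezh2 -/- array, against 11.29 on the fx/fx array (-0.019). Its symbol has several probe sets, of which the brightest was used, and the values of the others are not reported here. Ifnb1, the interferon that fibroblasts typically secrete, read 5.73 and 5.67 on the Ezh2 -/- arrays, against 5.70 and 5.92 on the fx/fx arrays (-0.11 ± 0.096), with overlapping groups. With Ink4a/Arf it read 4.67 on the Ezh2 -/- array, against 4.47 on the fx/fx array (0.21). Of the 9 interferon genes 3, Ifnb1 among them, were among the dimmest 30% of probe sets. The receptor chains Ifnar1 and Ifnar2 differed by -0.081 and -0.0014 in Ink4a/Arf-/- cells and by -0.022 and -0.18 in Ink4a/Arf+/+ cells. Of the 10 receptor and JAK-STAT genes 6 were higher in Ink4a/Arf-/- cells and 3 in Ink4a/Arf+/+ cells.

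Of 13 genes that induce interferon 8 were higher in each background. Tlr3, an endosomal receptor of double-stranded RNA, differed by 0.16 in Ink4a/Arf-/- and by 0.49 in Ink4a/Arf+/+ cells, and Tmem173 (STING), the adaptor of DNA sensing, by 0.083 and by -0.44. Of 9 negative regulators 5 were higher in Ink4a/Arf-/- and 6 in Ink4a/Arf+/+ cells, and Nlrx1, a mitochondrial inhibitor of this signalling, differed by 0.031 and by 0.39. Of 49 further interferon-stimulated genes 31 were higher in Ink4a/Arf-/- cells, 7 of them at an unadjusted p below 0.05 (14.3%, against 2.8% of all probe sets), and 27 were higher in Ink4a/Arf+/+ cells. Cxcl10, a chemokine that draws T cells, read 9.63 and 9.64 on the Ezh2 -/- arrays, against 8.88 and 8.82 on the fx/fx arrays. The groups were separated by 0.78 ± 0.073 (limma's adjusted p = 0.258), more than for any member, whereas in Ink4a/Arf+/+ cells it read 5.42 on the Ezh2 -/- array, against 5.38 on the fx/fx array (0.044). Lgals9 differed by 0.40 and 0.76, Lgals3bp by 0.33 and 0.84, Trim30a by 0.16 and 0.97, and Ifitm1, which blocks viral entry, by 0.030 and 0.78, in Ink4a/Arf-/- and Ink4a/Arf+/+ cells in that order.

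Macrophages and other leukocytes express many of these genes, so their markers were read on the same arrays. Of 12 such markers 8 were higher and 4 lower on the Ezh2 -/- arrays of Ink4a/Arf-/- cells, with a median of 0.035 and array medians of 7.71 and 7.75 for Ezh2 -/- against 7.98 and 7.61 for fx/fx. In Ink4a/Arf+/+ cells 7 were higher and 5 lower, with array medians of 5.75 for Ezh2 -/- and 5.71 for fx/fx. Lyz2, a lysozyme of macrophages, differed by 1.56 there, with 7.29 in Ezh2 -/- and 5.72 in fx/fx cells. Next among the higher markers there were Cd74 at 0.47 and Ptprc at 0.30. Of the 5 lower markers there, Cd68 differed by the most at -0.28, followed by Aif1 at -0.22. In Ink4a/Arf-/- cells Lyz2 read 10.85 to 11.01 in Ezh2 -/- and 10.59 to 11.07 in fx/fx cells, and Laptm5, of leukocyte lysosomes, 9.23 to 9.24 in Ezh2 -/- and 8.97 to 9.24 in fx/fx cells. Ptprc, which marks all leukocytes, read 7.03 to 7.07 in Ezh2 -/- and 6.94 to 7.12 in fx/fx cells lacking Ink4a/Arf, and 5.71 in Ezh2 -/- and 5.41 in fx/fx cells with it. The tables hold no detection call, so a level near background cannot be told from expression. Of 10 fibroblast markers 9 were lower on the Ezh2 -/- array of Ink4a/Arf+/+ cells, Pdgfra by the most at -1.41. Pdgfrb was higher there (0.44). Of 7 endothelial markers 4 were higher in Ink4a/Arf-/- and 5 in Ink4a/Arf+/+ cells, with Eng at 0.25 (limma's adjusted p = 0.650) and 1.21. Of 6 epithelial markers 4 were higher in Ink4a/Arf-/- and 5 in Ink4a/Arf+/+ cells, with Epcam at 0.29 (limma's adjusted p = 0.707) and 0.15. Krt18, the marker that was lower in Ink4a/Arf+/+ cells, differed by -0.31 there and by 0.056 in Ink4a/Arf-/- cells. The part of other cell types in the differences of the members was not tested.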

How the data were processed

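The authors deposited a table of log2 levels for each Ink4a/Arf background, with the log2 difference and its p-value for every probe set, per the file headers. The submitters' processing notes name limma with no version, and the sources used here do not give the normalization. The tables were joined by probe set, and the deposited series values equalled them (largest difference 0). Symbols came from the Ink4a/Arf-/- table, since 26 differed in the other, where some had turned into dates. A linear model with a mean for each of the 4 groups was fitted in limma 3.58.1 (R 4.3.3) to the log2 levels. Its two-sided p-values were adjusted over 23346 probe sets (Benjamini-Hochberg), with a threshold of 0.05. Only the Ink4a/Arf-/- replicates give a spread, with 2 residual degrees of freedom, and so few arrays limit the precision. In Ink4a/Arf+/+ cells differences of at least 2-fold and 1.5-fold were counted, with no test. The fits were tested on simulated data. Every simulated array had the same spread for a probe set, so this cannot check that a single array varies as the replicates do.

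The members, classes, pathway lists and markers were chosen with earlier results of these data known. Values on every array are given for the members with the 10 largest differences in each background, those with an unadjusted p below 0.05 in either limma contrast, and Irf7, Irf9, Stat2, Ddx58, Ifih1 and Dhx58; Ifit2, Psmb8 and Psmb9 were added as neighbours of these after their values were seen. Of each pathway list at most 4 genes with the largest difference in a background are named, with Ifnb1, Ifnar1 and Ifnar2, and a gene that the rule also selects is not reported here. Alternatives were quantile normalization, leaving out the dimmest 30% of probe sets, a variance trend, leaving out each replicate, a replicate block, the series values, the median over the probe sets of a gene, the authors' p-values and the fold threshold.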

Additional observations from a re-analysis of the deposited data

Results flagged for a closer look

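Every Ezh2 -/- array lay on one side of every fx/fx array in Ink4a/Arf-/- cells and on the other side in Ink4a/Arf+/+ cells for 6 of the 36 members (16.7%), as it did for 2832 of 23346 probe sets (12.1%). The log2 difference in Ink4a/Arf+/+ minus that in Ink4a/Arf-/- cells was -0.69 for Ifit3, -0.42 for Parp14, -0.40 for Stat2, -0.34 for Oasl2 and -0.10 for Irf9, which were higher without Ezh2 in Ink4a/Arf-/- cells and lower without it in Ink4a/Arf+/+ cells. For Isg15, lower without Ezh2 in Ink4a/Arf-/- and higher without it in Ink4a/Arf+/+ cells, it was 0.40. In limma's test of these differences themselves the adjusted p lay between 0.310 (Parp14) and 0.847 (Irf9), so none passed, and each rests on 1 array per genotype in Ink4a/Arf+/+ cells.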

How the results depend on the processing

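No member was called for Ezh2 loss in Ink4a/Arf-/- cells except with a variance trend, where 1 (Ifi44) was. Members higher at an unadjusted p below 0.05 numbered 4, and with an array left out between 2 (Ezh2 -/- replicate 1) and 8 (fx/fx replicate 1). Over the alternatives the difference of Ifi44 lay between 0.48 and 0.67 and its adjusted p between 0.0438 and 0.99992. In Ink4a/Arf+/+ cells the count at 2-fold was 0 and at 1.5-fold 1. For the difference between backgrounds 0 members were called under each alternative run, and those with an unadjusted p below 0.05 numbered 5, and between 1 and 7 with an array left out. Over all probe sets the calls of that contrast were 95, against 268 with quantile normalization, 355 without the dimmest 30% of probe sets, 627 with a variance trend, between 44 and 245 with an array left out, 152 with gene medians and 6 with the replicate block. For Ezh2 loss in Ink4a/Arf-/- cells they were 0, against 4 without the dim probe sets, 48 with the trend, 5 without Ezh2 -/- replicate 2 and 13 when fx/fx replicate 2 was left out. The dim filter left 27 of 36 members, and Ifit1, Ifit3 and Isg15 were among those removed. The median difference of the members in Ink4a/Arf-/- cells was 0.042 and turned to -0.0061 without fx/fx replicate 2.

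The replicate numbers were not taken to pair the arrays, since they form 2 pairs and the deviations of same-numbered arrays correlated at 0.026. With the replicate number as a block, 0 members were called in either contrast, 5 were higher at an unadjusted p below 0.05 for Ezh2 loss in Ink4a/Arf-/- cells, and 6 had one for the difference between backgrounds.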

Other observations

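Rsad2 and Cmpk2 are direct neighbours among the members, and both were among the dimmest 30% of probe sets. Rsad2 read 6.85 and 6.61 on the Ezh2 -/- arrays, against 6.93 and 6.63 on the fx/fx arrays in the Ink4a/Arf-/- table, and 5.71 on the Ezh2 -/- array, against 5.82 on the fx/fx array of Ink4a/Arf+/+ cells. Cmpk2, with no protein-coding gene between it and Rsad2, read 6.41 and 6.25 on the Ezh2 -/- arrays, against 6.40 and 6.16 on the fx/fx arrays, and 5.59 on the Ezh2 -/- array, against 5.31 on the fx/fx array. In Ink4a/Arf-/- cells the difference was -0.050 ± 0.13 for Rsad2 and 0.044 ± 0.11 for Cmpk2 (SE), each smaller than its error. In Ink4a/Arf+/+ cells, with 1 array per genotype and no spread, the differences were -0.10 for Rsad2 and 0.28 for Cmpk2.

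Slfn9, of the Schlafen family, differed by 0.012 in Ink4a/Arf-/- cells and by -0.63 in Ink4a/Arf+/+ cells, and was the 1 gene of the pathway lists at least 1.5-fold lower there. Ube2l6, the conjugating enzyme for Isg15, differed by -0.021 in Ink4a/Arf-/- cells, with overlapping groups, and by 0.59 in Ink4a/Arf+/+ cells. Ube2l6 was named after its values were seen. On the Ink4a/Arf+/+ arrays 417 of 23346 probe sets, Oasl1 among them, had the same value in both genotypes.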
